A study of Drosophila melanogaster with 2 samples.

Results

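The nuclear genes that encode subunits of the mitochondrial respiratory chain and ATP synthase were examined in an anti-GFP chromatin immunoprecipitation and sequencing (ChIP-seq) experiment on Drosophila melanogaster. They were chosen by symbol alone, as nuclear protein-coding genes of the Ensembl BDGP6 annotation whose symbol starts with ND-, COX and a digit, UQCR-, ATPsyn or Sdh. The rule gave 88 genes of 13968 protein-coding genes on the chromosome arms. Among them is Sdhaf3, an assembly factor of complex II and not a subunit, which is counted with complex II below. The series holds 1 group of 2 biological replicates, whole embryos of 0 to 24 h from the strain esg-GFP, in which the escargot (esg) gene product is fused to eGFP. Both replicates carry the tagged protein, there is no second condition, and no untagged embryos were analysed here. Escargot belongs to the Snail family of DNA-binding zinc finger proteins. Whole embryos were used, so a peak cannot be placed in a cell type. The main list, which the authors call conservative, holds 4419 peaks that passed a limit on the irreproducible discovery rate (IDR) between replicates, 4397 of them on the arms. At the tagged gene itself the nearest summit of that list lay 3590 bp from an esg start site. The read depth behind the peaks is unknown, and no test between conditions is possible.

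The respiratory chain passes electrons from NADH (complex I, ND- genes) and succinate (complex II, Sdh genes) through complex III (UQCR- genes) and cytochrome c to oxygen at complex IV (COX genes). Complexes I, III and IV pump protons across the inner mitochondrial membrane, and ATP synthase (complex V, ATPsyn genes) uses that gradient to make ATP. Some subunits of complexes I, III, IV and V are encoded in mitochondrial DNA, and the genes considered here are the nuclear ones. Several of these genes have a duplicate copy, whose symbol ends in L or in L and a digit, and in Drosophila such copies of nuclear respiratory genes are mostly expressed in testis.

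The sequences at 5 of the 6 strongest peaks of the set are printed as examples of the DNA at a summit. That of ND-MWFE, the strongest, is not printed. They are dm6 bases of the plus strand, given 5′ to 3′ as in the RefSeq genome sequence, up to 40 bp either side of the summit and without bases annotated as UTR. Capitals mark matches on either strand to the motifs searched, of which the stretches hold TTAAAA at ND-51, the word GAGAG at ATPsynE and TTANNTAA at ND-SGDH. The stretches are chrX:6679342-6679422 for ND-ASHI, chrX:17632180-17632230 for ND-24, chr2L:6062812-6062892 for ND-51, chr3R:14327841-14327921 for ATPsynE and chr3L:12138632-12138712 for ND-SGDH. The summit is base 41 in each, except base 11 for ND-24.
ND-ASHI: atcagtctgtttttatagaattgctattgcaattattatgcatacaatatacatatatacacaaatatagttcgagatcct
ND-24: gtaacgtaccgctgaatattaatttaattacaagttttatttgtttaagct
ND-51: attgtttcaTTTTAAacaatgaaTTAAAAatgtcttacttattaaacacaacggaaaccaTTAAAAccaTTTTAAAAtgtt
ATPsynE: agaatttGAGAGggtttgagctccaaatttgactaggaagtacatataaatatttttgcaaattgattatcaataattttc
ND-SGDH: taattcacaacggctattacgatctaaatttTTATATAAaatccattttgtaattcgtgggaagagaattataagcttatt
The GC content of these short stretches was from 21% to 27.2%. With 100 bp either side of the summit it was from 25.9% at ND-SGDH to 40.8% at ND-ASHI, which are also the lowest and the highest of the 16 genes with a peak. The Snail-family E-box CAGGTG was in none of these 5 stretches. Among the genes not shown above it lay within 100 bp of the summit at COX8 and UQCR-6.4L, which were picked out after their windows had been read. The stretches with 20 bp either side of the E-box are chr3L:21539487-21539532 for COX8, where it is 10 bp from the summit, and chr3L:16567819-16567864 for UQCR-6.4L, where it is on the minus strand and 89 bp from the summit.
COX8: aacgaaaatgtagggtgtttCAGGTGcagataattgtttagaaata
UQCR-6.4L: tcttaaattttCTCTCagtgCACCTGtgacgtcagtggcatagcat

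A gene is said here to have a peak when a summit of the main list lies within 1000 bp of the start of any of its transcripts. By that rule 16 of the 88 genes had a peak (18.2%, 95% exact binomial interval 10.8 to 27.8), against 19.1% of all nuclear protein-coding genes (2662 of 13968). The members' share was near that background. Complex I supplied 8 genes of 40, complex II 1 of 8, complex III 2 of 9, complex IV 3 of 16 and ATP synthase 2 of 15. The intervals of all 5 complexes included the background share, and the smaller complexes have too few genes to be told apart. Of the 24 duplicate genes 1 had a peak (4.17%, 0.105 to 21.1), and of the other 64 genes 15 had one (23.4%, 13.8 to 35.7). ND-MNLL also ends in L but is named for its own sequence and was counted with the others. The difference between duplicates and the other genes was not tested, and both intervals hold the background share.

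**Figure D1:**
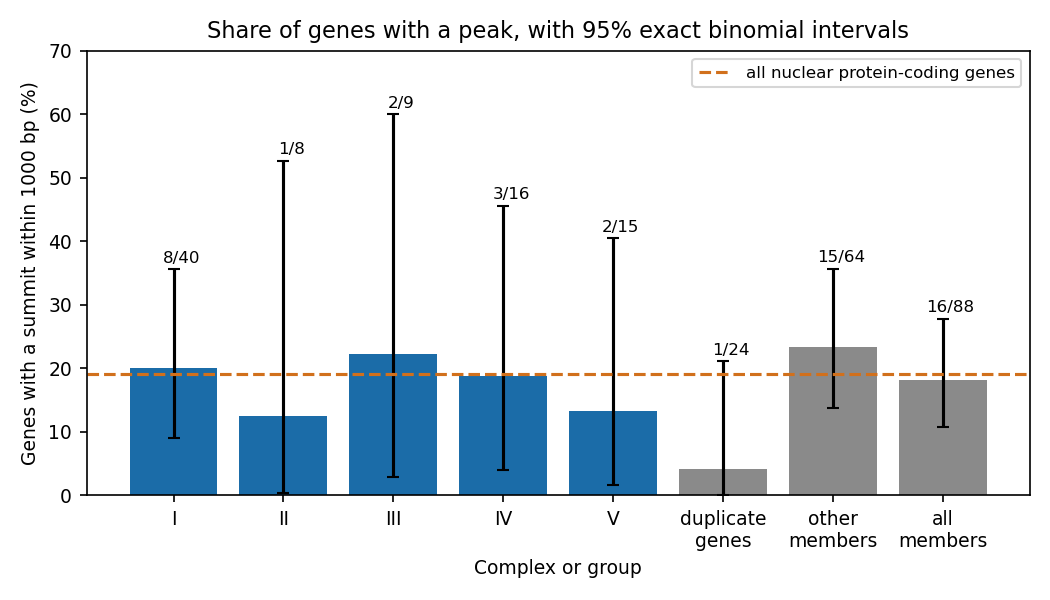
Share of genes with a main-list summit within 1000 bp of a start site (y axis, %), for each complex (blue) and for the duplicate genes, the other members and all members (grey). Bars start at 0, whiskers are 95% exact binomial intervals, numbers above are genes with a peak over genes in the group, and the dashed line is the share of all nuclear protein-coding genes, 19.1%, which every whisker crosses.

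Complex I had the strongest peaks of the set. ND-MWFE (FBgn0085468, chromosome arm 2R, 13158666 to 13160190, plus strand), an accessory subunit of the membrane arm, had a peak at 13158362 to 13158586 with a signal value of 403.4, rank 296 of the list and percentile 93.3. The signal value is the authors' own number per peak, without a stated unit, and percentile 100 is the strongest peak. This summit lay 195 bp upstream of ND-MWFE but only 26 bp from the start of TppII, the tripeptidyl peptidase II gene that runs the other way, and was annotated in a TppII intron. ND-ASHI (FBgn0029888, X, 6677262 to 6679118, minus strand), another accessory subunit, had a peak at 6679298 to 6679458 with a signal of 296.7 (rank 496). Its summit was 264 bp upstream of ND-ASHI and 258 bp from a start site of Fum1, inside an intron of that gene. Fum1 encodes fumarase, the enzyme of the citric acid cycle that acts on the product of complex II, so 1 peak is shared by a complex I gene and a gene of that cycle. ND-24 (FBgn0030853, X, 17632089 to 17633509, plus strand) encodes an iron-sulphur subunit of the NADH-oxidising module. Its peak at 17632128 to 17632222 had a signal of 262.7 (rank 605), with the summit 101 bp downstream of the start, in the gene's own intron. These 3 peaks were the only ones of the 16 in the strongest 20% of the list.

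The remaining complex I peaks were of middle or low rank. ND-51 (FBgn0031771, 2L, 6060842 to 6062757, minus strand) encodes the subunit that binds NADH and flavin, and acts beside the ND-24 product in the same module. Its peak (6062684 to 6063019, signal 170.3, rank 1210) was intergenic with the summit 95 bp upstream. ND-SGDH (FBgn0011455, 3L, 12137496 to 12138584, minus strand), an accessory subunit, had an intergenic peak 88 bp upstream (12138504 to 12138839, signal 153.8, rank 1399). It had a further and weaker peak 884 bp upstream, with a signal of 79.8 and rank 3238, that was on the list of replicate 2 alone. ND-42 (FBgn0019957, 3R, 22027709 to 22029393, plus strand), also an accessory subunit, had its summit 241 bp upstream (22027300 to 22027635, signal 123.2, rank 1863). That summit was 12 bp inside the 5' UTR of Cchl, the divergent gene for cytochrome c heme lyase, which attaches heme to the electron carrier between complexes III and IV. ND-B17 and ND-39, both accessory subunits, had signals of 117.2 (rank 1992) and 76.6 (rank 3390). The ND-B17 summit was 105 bp upstream, and that of ND-39 was 923 bp upstream of a start, in introns of ND-39 and of the zinc transporter gene ZnT77C. That start is the inner of the 2 start sites of ND-39. Counted by its outermost start alone, ND-39 had no peak.

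Outside complex I, peaks were spread over the other 4 complexes. SdhA (FBgn0261439, 2R, 19391863 to 19395971, minus strand), the flavoprotein subunit of succinate dehydrogenase, had a peak at 19396681 to 19397016 with a signal of 144.2 (rank 1512). Its summit was 878 bp upstream of SdhA and 77 bp from the start of cer, and lay in an exon of a noncoding antisense RNA. SdhA was the sole Sdh gene with a peak. In complex III, UQCR-14 had a peak of signal 61.5 (rank 4044) 928 bp upstream, in the 3' UTR of eas, and the duplicate gene UQCR-6.4L had one of 86.7 (rank 2915) 1000 bp downstream, in an intron of Mipp1. UQCR-6.4L thus sits exactly on the distance limit. The genes just outside it were ATPsyndelta at 1644 bp, ND-B22 at 1920 bp and COX7C at 1928 bp.

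In complex IV, COX8 (FBgn0263911, 3L, 21538859 to 21539447, minus strand), one of the small nuclear-encoded subunits, had an intergenic peak 75 bp upstream (21539354 to 21539689, signal 138.3, rank 1600). COX5A, another nuclear-encoded subunit, had a peak of 119.1 (rank 1950) 115 bp downstream in its own intron, with a start of glo 54 bp away, and glo encodes an RNA-binding protein. COX5A has 2 start sites, and in the replicates' own lists the summit was 108 and 102 bp upstream of the nearer one, so its side differs between the lists. COX7B had an intergenic peak of 90.1 (rank 2770), 175 bp upstream. In complex V, ATPsynCF6 (FBgn0016119, 3R, 23355220 to 23356064, minus strand), coupling factor 6 of the peripheral stalk, had an intergenic peak 154 bp upstream (23356050 to 23356385, signal 132.2, rank 1699). ATPsynE (FBgn0038224, 3R, 14326947 to 14327735, plus strand) encodes subunit e, a small membrane subunit. Its stronger peak (14327713 to 14328048, signal 157.2, rank 1351) had the summit 813 bp downstream of a start, beyond the end of the gene. Its weaker peak, with a signal of 65.2 and rank 3893, had the summit 47 bp upstream of an ATPsynE start and was on neither replicate's thresholded list.

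The 8 strongest peaks were on the thresholded lists of both replicates. Of the 16 peaks, 10 overlapped a peak of the thresholded list of each replicate (62.5%, 35.4 to 84.8). For all genes with a peak that share was 67.3%. Set against all genes of the set, 10 of 88 had a peak found in both replicates, beside 12.8% of all protein-coding genes. ND-MWFE had signals of 234.9 in replicate 1 and 172.6 in replicate 2, at percentiles 92.6 and 89.1 of those lists. ND-ASHI had 159.3 and 136.1, and ND-24 had 146.4 and 111.3. These 3 genes had the highest values in both replicates. Lower signals in both replicates were those of ND-51 (88.9 and 85.4), ATPsynE (80.8 and 77.4), COX8 (71.7 and 57.9), ND-42 (64.3 and 60.2) and COX5A (65.1 and 59.0). ND-SGDH and SdhA stood at different places in the lists. ND-SGDH stood at percentile 33.3 in replicate 1 (signal 59.7) and 70.6 in replicate 2 (95.2). SdhA stood at 64.6 in replicate 1 (93.2) and 30.4 in replicate 2 (50.6).

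The other 6 peaks missed the thresholded list of at least 1 replicate. All 16 overlapped a peak of both replicates' longer ranked lists. That is no separate support, because the main list was itself selected by IDR between the replicates. ATPsynCF6 was on the list of replicate 1 (signal 79.8) and just missed that of replicate 2, where its ranked peak had a signal of 50.6 and a −log10 IDR of 1.95, under the limit of 2. ND-39 was on the list of replicate 1 at 44.2, percentile 8.10, and had 25.2 in the ranked list of replicate 2. ND-B17 and COX7B were on the list of replicate 2 with 58.4 and 54.0, and had 48.9 and 40.9 in the ranked list of replicate 1. UQCR-6.4L (50.8 and 35.3) and UQCR-14 (34.9 and 27.5) were on neither thresholded list, so both complex III genes rest on the combined list alone. In the opposite direction, ND-MNLL, an accessory complex I subunit, was on the list of replicate 2 (signal 44.7, percentile 20.7, 108 bp upstream) and not on the main list.

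**Figure D2:**
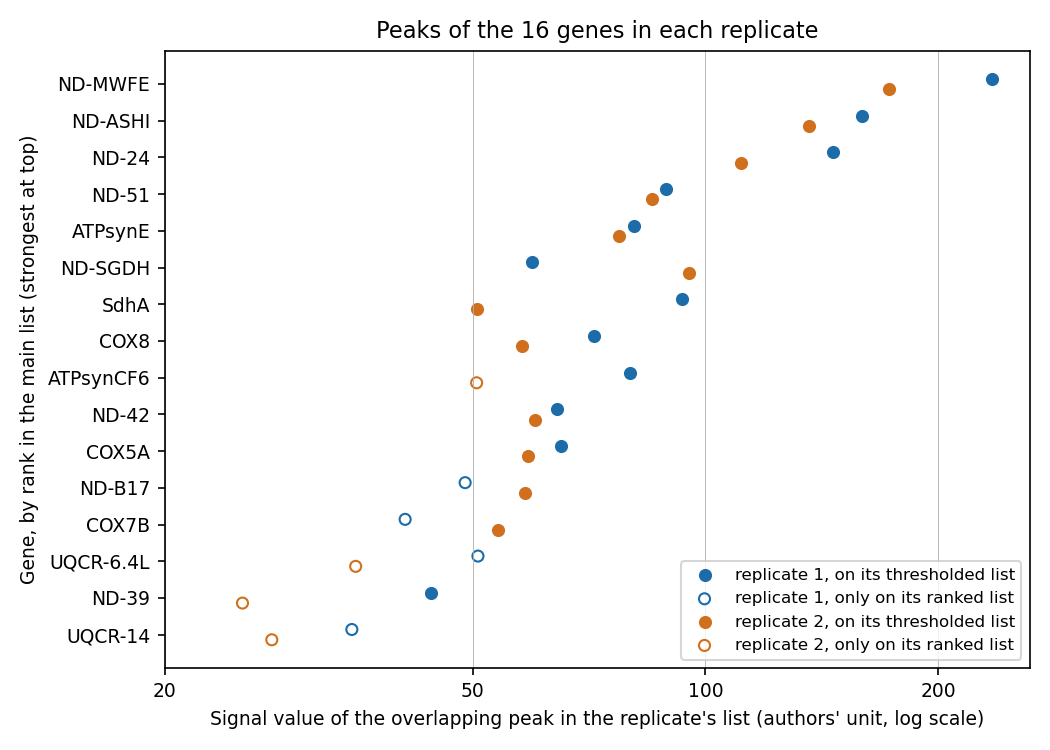
Signal value of the peak that overlaps each gene's main-list peak in replicate 1 (blue) and replicate 2 (orange), on a log scale in the authors' unit, with genes ordered by rank in the main list. Filled points are on the replicate's thresholded list and open points only on its longer ranked list; ND-MWFE, at 234.9 and 172.6, is highest in both, and the open points belong to ATPsynCF6, ND-B17, COX7B, UQCR-6.4L, ND-39 and UQCR-14.

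Most summits were upstream and close to the start, and most were next to a second gene. The strongest peak was upstream of the start for 12 of 16 genes (75%, 47.6 to 92.7), and upstream for 84.1% of all genes with a peak. At 11 of the 16 the summit was within 264 bp, and at the other 5, ATPsynE, SdhA, ND-39, UQCR-14 and UQCR-6.4L, it was 813 to 1000 bp away. The strongest peak was thus within 500 bp at 11 of 16 (68.8%, 41.3 to 89), a lower share than the 81.3% of all genes with a peak. Upstream summits had a median distance of 185 bp, beside 186 bp over all genes with a peak. A divergent protein-coding neighbour, one on the opposite strand that starts within 1000 bp upstream, was present at 12 of the 16 genes (75%, 47.6 to 92.7), beside 61.9% of all genes with a peak. It was present at 32 of the 72 genes of the set without a peak (44.4%, 32.7 to 56.6). Counted the other way, 12 of the 44 members with such a neighbour had a peak (27.3%, 15 to 42.8) and 4 of the 44 without (9.09%, 2.53 to 21.7). Over all genes these shares were 32.6% and 11.4%. Over the whole set 44 of 88 genes had such a neighbour (50%, 39.1 to 60.9), beside 36.2% of all protein-coding genes. These differences were not tested. Of the duplicate genes only SdhBL, COX7AL, ATPsynbetaL and ATPsynepsilonL had such a neighbour, so the split by neighbour overlaps the split into duplicates and other genes.

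The neighbours were of varied function. At ND-MWFE, ND-ASHI, ND-51, ND-SGDH, COX8, ATPsynCF6 and COX7B the summit lay between the starts of the pair, with TppII, Fum1, CG13994, RhoGAP68F, VhaM9.7-b, Sec13 and Sec3 on the other side. VhaM9.7-b encodes a subunit of the vacuolar proton pump, Sec13 a coat protein of the secretory pathway and Sec3 a subunit of the exocyst. At 6 of these 7 pairs the starts were 214 to 415 bp apart, and at ND-ASHI and Fum1 the starts nearest to the summit were 522 bp apart. The 7 were counted by the starts nearest to the summit. By that rule COX5A was left out, though its summit is upstream of its other start and of the nearest start of glo. Other pairs were ND-24 with corolla, a gene of the synaptonemal complex, ND-42 with Cchl, COX5A with glo, ATPsynE with Afti and ND-39 with ZnT77C. The summit of the stronger ATPsynE peak was not at that pair's promoters. It lay 1192 bp from the nearest start of Afti and 170 bp from a start of spn-B. In 9 of the 16 genes another protein-coding gene had a start nearer to the summit. The member's own start was the nearest at 7 of 16 (43.8%, 19.8 to 70.1), ND-24, ND-51, ND-SGDH, COX8, ND-B17, UQCR-6.4L and UQCR-14, beside 69.4% of all genes with a peak. If a summit is given only to the gene with the nearest start, 8 members have a peak, ATPsynE among them through its weaker peak, and 13.7% of all genes do.

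**Figure D3:**
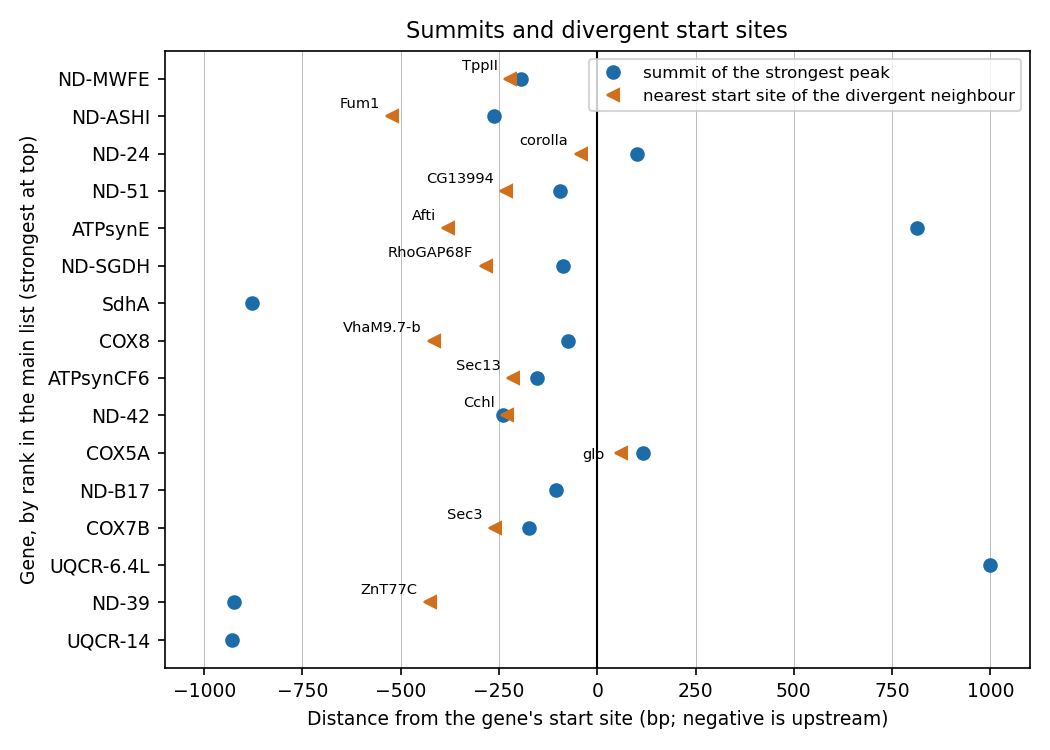
Position of the strongest peak's summit (blue circles) and of the nearest start site of the divergent neighbour (orange triangles, named) relative to each gene's start at 0, in bp with upstream negative, for the 16 genes in order of rank. At 11 genes the circle is within 264 bp of the start and at 7 it lies between the start and the triangle, and ATPsynE, SdhA, UQCR-6.4L, ND-39 and UQCR-14 lie 813 to 1000 bp away.

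The peaks of the set were of middling strength. Their signal values were from 61.5 to 403.4 with a median of 135.2, beside a median of 138.0 for the strongest peaks of all genes with a peak, in a list that reaches 2451.6. The median percentile was 62.7, beside 63.7 over all genes with a peak. Between the quartiles the members spanned percentiles 50.5 to 70.2, and all genes with a peak 36.7 to 84.7. In the strongest 20% of the list there were 3 of the 16 (18.8%, 4.05 to 45.6), beside 32% of all genes with a peak, and in the weakest 20% there was 1, UQCR-14. In each replicate's own list the members stood lower, with a median percentile of 55.8 in replicate 1 (12 genes) and 44 in replicate 2 (13 genes), beside 62.4 and 61.9 over all genes with a peak there. The order of signal was not tested against other genes.

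**Figure D4:**
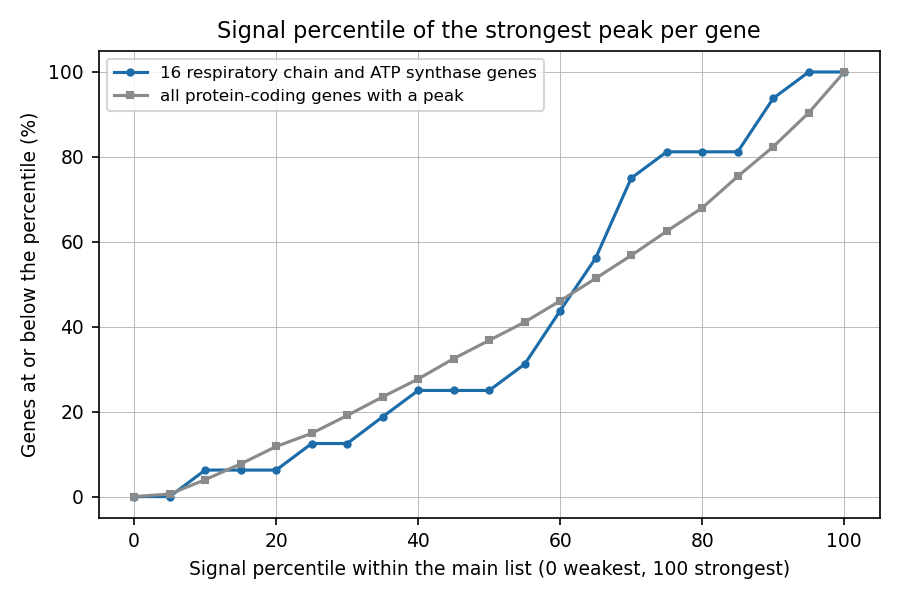
Share of genes (y axis, %) whose strongest main-list peak is at or below each signal percentile (x axis, 100 is the strongest peak of the list), for the 16 respiratory chain and ATP synthase genes (blue) and for all protein-coding genes with a peak (grey). The curves meet near the medians of 62.7 and 63.7, and the blue curve reaches 100% at percentile 95, where the grey one is at 90.4%.

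The 72 genes without a main-list peak were looked up among weaker peaks. The ranked list of both replicates, before the threshold, holds 60515 peaks, and 61 of the 88 genes had a summit of it within 1000 bp (69.3%, 58.6 to 78.7). For all protein-coding genes this was 67.1%, so a weak ranked peak is no distinction. Of the 72 genes, 45 had such a ranked peak (62.5%), beside 59.4% of all protein-coding genes without a main-list peak, and 27 had none. An IDR of 0.1 or below was reached by 6 of the 72 (8.33%, 3.12 to 17.3), beside 5.69% of all protein-coding genes without a main-list peak. COX7AL2, a duplicate gene of complex IV, had a ranked peak 418 bp downstream with a signal of 59.4 and a −log10 IDR of 2.35, past the limit of 2. It is 1 of 113 ranked peaks past that limit that the thresholded list does not hold. The others were ND-MNLL (1.48, signal 73.0), ND-B15 (1.43, signal 49.0), ATPsynC (1.22, signal 48.7), COX7AL (1.07, signal 48.6) and COX5B (1.03, signal 46.1). ATPsynC encodes the subunit of the proton-driven rotor ring, and COX5B a nuclear-encoded subunit of complex IV.

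**Figure D5:**
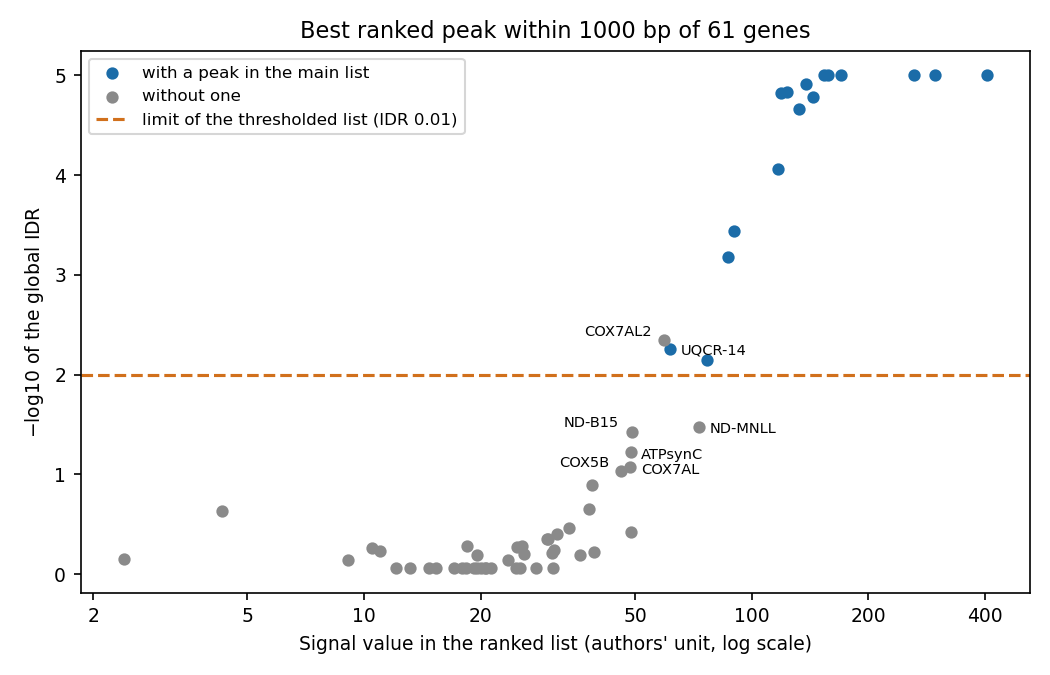
Signal value (x axis, log scale, authors' unit) and −log10 of the global IDR (y axis) of the best ranked peak within 1000 bp of a start, for the 61 genes that have one, with genes that have a main-list peak in blue and the rest in grey. The dashed line is the limit of the thresholded list, an IDR of 0.01; COX7AL2 is the grey point above it, at 2.35, and ND-MNLL the highest below it, at 1.48.

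The distance to the nearest main-list summit was read for the genes without a peak, 81.8% of the set. ND-24, ND-51 and SdhA, described above, are core subunits with a peak. ND-75, ND-49, ND-30, ND-23 and ND-20, which encode further core subunits of complex I, had their nearest main-list summits 3456, 411413, 19199, 20586 and 96361 bp away. SdhB, SdhC and SdhD, the other subunits of succinate dehydrogenase, had theirs at 2250, 2011 and 2388 bp. UQCR-C1 and UQCR-C2, the large core proteins of complex III, had theirs at 3826 and 12542 bp. COX4, a nuclear-encoded subunit of complex IV, had its nearest summit at 17196 bp. ATPsynbeta and ATPsyngamma, the catalytic and the central stalk subunits of ATP synthase, had theirs at 4195 and 3667 bp. Over the 72 genes the median was 8204 bp, 30 were more than 10000 bp from a summit and 7 more than 100000 bp, up to ND-AGGG at 2097356 bp on arm 3L. The rest of the set without a peak were ND-13A, ND-13B, ND-15, ND-18, ND-19, ND-ACP, ND-B8, ND-B12, ND-B14, ND-B14.5A, ND-B14.5B, ND-B14.7, ND-B16.6, ND-B17.2, ND-B18, ND-MLRQ and ND-PDSW in complex I, UQCR-6.4, UQCR-11 and UQCR-Q in complex III, COX6B and COX7A in complex IV, and ATPsynB, ATPsynD, ATPsynF, ATPsynG and ATPsynO in complex V. The complex II assembly factor Sdhaf3 had none either. By chromosome arm, 2 of 16 members had a peak on 2L, 2 of 17 on 2R, 5 of 20 on 3L, 4 of 20 on 3R, 3 of 13 on X and 0 of 2 on 4. Of all genes of those arms, in that order, 19%, 17.8%, 20.6%, 19.4%, 19.2% and 1.25% had a peak. The members' interval held that share on each arm, but on 4 it ran from 0 to 84.2% and could hardly have left it out.

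Since 1 duplicate alone had a peak, at most 1 pair of a gene and its copy could share one. ND-24 and ND-51 had peaks and their copies ND-24L, ND-51L1 and ND-51L2 did not. SdhA and ATPsynCF6 had peaks, and the copies SdhAL and ATPsynCF6L did not. UQCR-14 had a peak and UQCR-14L did not, while UQCR-6.4L had a peak and UQCR-6.4 did not. The remaining duplicates without a peak were ND-20L, ND-49L, ND-B14.5AL, SdhBL, SdhCL, UQCR-11L, COX4L, COX5BL, COX6AL, COX6AL2, COX6CL, COX7AL, COX7AL2, COX7CL, ATPsynbetaL, ATPsynGL and ATPsynepsilonL.

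Other genes of mitochondrial energy metabolism, from a list that was not chosen by symbol, were looked up in the same way. Of 38 such genes 13 had a peak (34.2%), beside the 19.1% of all protein-coding genes given above, and no test was made of that share. The list was chosen with earlier results of these data known, so the share cannot be read as an excess over all genes. Among 7 subunits with other symbols, blw, levy and cype had peaks with signals of 216.9, 316.2 and 94.4. The blw gene encodes the alpha subunit of ATP synthase, which forms the catalytic head with the ATPsynbeta product, and its summit was 125 bp upstream. Subunits of complex IV are encoded by levy and cype, and the summits there were nearer to wmd and Ncoa6. Both genes for cytochrome c, Cyt-c-d and Cyt-c-p, had peaks, with signals of 549.4 and 445.8, at ranks 152 and 240. Both exceeded every peak of the 88 genes, but the Cyt-c-d summit was nearer to the start of CG31808, and that of Cyt-c-p was 924 bp from its start. Of 9 assembly factors 3 had a peak, CIA30 at 1852.9 (rank 4, nearer to CG7601), Cox17 at 130.6 and Sirup at 62.7 (nearer to CG7227). Of 10 genes of the citric acid cycle 4 had a peak, Idh3g at 443.1, Fum1 at 296.7 by the peak shared with ND-ASHI, mAcon1 at 82.6 and Scsalpha1 at 63.6. Of 4 carrier genes Mpcp1 had one, at 60.0. The peaks of Sirup, Scsalpha1 and Mpcp1 were on neither replicate's thresholded list and that of cype was on the list of replicate 1 alone, which leaves 9 of the 13 in both. None of the 6 nuclear regulators of mitochondrial genes, ewg, Ets97D, srl, TFAM, mTTF and mtTFB2, had a peak.

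The DNA at the 16 summits was read for short motifs in windows of 100 bp either side, on both strands. The mean GC content was 32.1%, beside 33.5% for the summits of all genes with a peak and 34.2% for all summits on the arms. CAGGTG, the E-box known for Snail-family proteins, was in 2 of the 16 windows (12.5%), at COX8 and UQCR-6.4L, beside 4.66% and 5.28%. The UQCR-6.4L summit is the one on the distance limit, and its peak was on neither replicate's thresholded list. Any E-box (CANNTG, which includes CAGGTG) was in 12 (75%), beside 56.8% and 57.3%. The AT-only word TTAAAA, added after the summits of the whole list had been searched, was in 11 (68.8%), beside 57.7% and 53.4%. The DNA replication-related element TATCGATA was in none, beside 4.33% and 2.09%, and GGTCACAC, the core of a promoter motif of housekeeping genes, was in 1, at ND-B17, beside 1.59% and 1.02%. TTANNTAA, the core of an element described at nuclear respiratory genes of Drosophila, was in 3 windows (18.8%), at ND-MWFE, ND-SGDH and COX7B, beside 25.6% and 21.8%. GAGAG was in 2 (12.5%), beside 18.5% and 19.8%. With 16 windows, a single window is worth 6.25%, and no share was tested.

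Promoters were compared as each gene's outermost start with the bases upstream of it, in windows of the same length. Mean GC content was 32.9% in the 16 genes with a peak and 33.9% in the 72 without, beside 38.6% over the promoters of all protein-coding genes. TTAAAA was in 12 of 16 (75%) and 44 of 72 (61.1%), beside 43.1%. TTANNTAA was in 6 of 16 (37.5%) and 13 of 72 (18.1%), beside 17.9%. GGTCACAC was in 2 of 16 (12.5%) and 7 of 72 (9.72%), beside 3.74%. CAGGTG was in 2 of 16 (12.5%) and 2 of 72 (2.78%), beside 6.36%. A match is only the presence of these letters in the window.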

How the data were processed

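Peaks in dm6 were derived from the alignments of the replicates and a further input whose kind is not stated there, and selected by IDR, per the descriptions deposited by the authors. Which aligner and peak caller made them is not given in the sources used here. Chromatin was sonicated to 200 to 800 bp, per the labels. The authors' signal value of a peak was compared within 1 list only. For ranked peaks the authors also deposited a −log10 global IDR. Every main-list peak was in the longer ranked list of the series at 2 or more. The 8 further columns of the series' ranked lists were not used. Replicates 1 and 2 had 3138 and 3357 thresholded peaks, and the other list of the series 3761.

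Summits (1-based) were assigned to the starts of all transcripts in Ensembl release 115 (BDGP 6.54), whose coordinates, like the peaks, lie within the arm lengths of the RefSeq dm6 sequence. Overlap with a replicate needed 1 bp. The strongest peak stands for a gene with several. The assignment was tested on 200 simulated summits, and 141 of 141 within the distance were recovered. No significance test was run. Intervals are exact Clopper-Pearson at 95% and cover counting error only. Members, lists and motifs were chosen with earlier results of these data known, TTAAAA and the stretches around CAGGTG after the plan was fixed. All members with a peak were named, with full values for the 10 strongest and replicate values for those missing from a replicate. In the plan, symbols ending in L, or in L and a digit, were duplicates, and ND-MNLL was later taken out. From the list of other genes, Pdsw and mtacp are members under current symbols (ND-PDSW, ND-ACP), and Coa3 was matched as Ccdc56. The scripts used pandas 2.3.3, numpy 2.4.6, scipy 1.17.1 and matplotlib 3.10.9 under Python 3.11.15.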

Additional observations from a re-analysis of the deposited data

How the results depend on the processing

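Of the 88 members, 16 had a peak in the main list and 12 to 19 under 8 of 9 alternatives. Of all protein-coding genes the share was 19.1% in the main list and 12% to 23.9% under the same 8. The number of members fell to 8 when a summit counted only for the gene with the nearest start site, beside 13.7% of all genes. With each replicate's own list alone it was 12 to 13, beside 14.8% and 15.8% of all genes. All 12 members on the list of replicate 1 were on the main list, and 12 of 13 on that of replicate 2. The other list of the series had 13, without COX7B, UQCR-6.4L and UQCR-14. Members found in both replicates numbered 10, from 9 to 10 under stricter overlap or a stricter threshold, and 16 against the replicates' ranked lists, which hold many more peaks. Upstream summits numbered 12, and 10 to 13 under the alternatives, with 10 to 11 from a single replicate. These counts are out of the members with a peak under each setting, such as 10 of 12 within 500 bp. Over all genes with a peak the upstream share was 84.1% in the main list and 79.1% to 89.4% under the alternatives. The count of 13, with the peak nearest to the start standing for a gene, was an alternative chosen after seeing the data. Divergent neighbours numbered 12, and 11 to 13 under the alternatives, beside 61.9% and 50.3% to 68.8% of all genes with a peak. The median signal percentile was 62.7, it was 59.7 both in the other list and with the summit nearest to the start, and from 44 to 55.8 with a single replicate's list. The cause was not tested. No paired analysis was possible because the series holds 1 group. Depth is unknown, so a gene without a peak is one with no peak on this list, not one without binding.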
